A study of Mus musculus with 6 samples.

Results

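A set of 6 chemokine receptor genes with roles in inflammation, Ccr2, Ccr9, Cxcr2, Cxcr4, Cxcr6 and Cx3cr1, were read in CD4+ T cells from the spleens of mice after haematopoietic stem cell transplantation. They were chosen by symbol, and all 6 were found among the 15686 genes with values. The data were FPKM (fragments or reads per kilobase of exon, scaled to library depth, so levels per length) from 6 libraries of total RNA depleted of ribosomal RNA. In 3 libraries labelled allogeneic (allo-labelled here) the donor was C57BL/6 and the host Balb/c, in 3 labelled syngeneic (syn-labelled) both were Balb/c, and every sample has Balb/c as its strain. The cells were isolated from spleen suspensions with a CD4+ T cell kit. The labels state neither the time after transplantation, conditioning, age and sex, nor whether cells came from donor or host, nor whether each replicate was a separate animal. P-values therefore measure only how these samples spread, and that spread may be technical. The comparison asks which genes are expressed unequally by the cells of the 2 transplant settings.

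Chemokine receptors are membrane proteins that pass repeatedly through the membrane and couple to inhibitory G proteins. Binding of a chemokine starts G protein, phosphoinositide 3-kinase and Rac signalling, which steers the cell along the chemokine gradient, and kinases and arrestins then switch the receptor off and take it into the cell. In graft-versus-host disease the receptors carried by T cells help to set which organs the cells enter. In the spleen CCR2, CX3CR1 and CXCR2 are also receptors of monocytes, macrophages and neutrophils.

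Genes known to differ between the 2 strains went against the group labels, and every direction below is between libraries as labelled. Of 9 such genes, taken from an earlier reading of these data, 8 differed between the groups in the direction opposite to the donor strains of the labels. Trbv26, a T cell receptor segment depleted in BALB/c mice, averaged 0.402 ± 0.438 FPKM in allo-labelled libraries and 56.5 ± 3.25 in syn-labelled libraries (SD, n = 3 each). The implied depth was 15.7 to 16.3 M reads in allo-labelled libraries and 14.8 to 16.96 M in syn-labelled libraries. All 9 T cell markers, Cd4 among them, were measured in every library and lower in allo-labelled libraries (summed level 568 to 588 against 1161 to 1212 FPKM), while all 9 resident macrophage markers (420.5 to 439 against 96.4 to 109 FPKM) and all 8 red cell markers (400.9 to 419 against 8.21 to 10.4 FPKM) were higher. Every gene with values reached 0.517 FPKM or more in some library, so no marker with values could be at 0 in all 6 libraries. The lack of such markers therefore does not show which other cell types were present. Some listed markers of NK cells, B cells, red cells and blood progenitors had no values. In such bulk libraries fewer cells of a type and less RNA per cell cannot be told apart.

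Of the 6 receptors, Ccr2 and Cx3cr1 were higher and Cxcr4 and Cxcr6 were lower in allo-labelled libraries (except after scaling to the CD3 chains, which put both slightly above 0), and Cxcr2 and Ccr9 did not pass the test. The test was limma on log2(FPKM + 1) over the 13235 genes that reached 1 FPKM in 3 or more libraries, with Benjamini-Hochberg adjustment and a threshold of 0.05, and all 6 receptors passed the filter. Fold changes on the log2 scale are of FPKM + 1, allo-labelled minus syn-labelled libraries, and come out too small for low genes. The 4 of 6 calls (66.7%) lay near the background, since 67.4% of all tested genes passed, 40.7% higher and 26.6% lower. That split was 5389 higher and 3525 lower genes, against 11404 and 546 after scaling to the CD3 chains. The 2 groups did not overlap for 5 of the 6 receptors (83.3%) and for 72.5% of all tested genes.

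**Figure D1:**
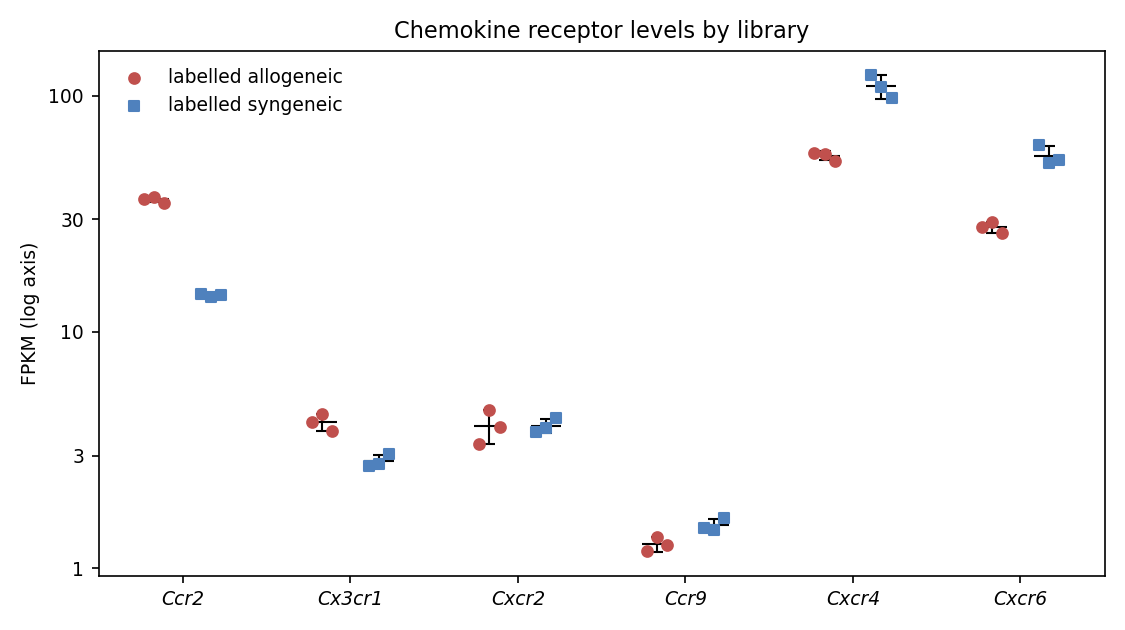
FPKM of the 6 receptors in each library on a log axis, with circles for the 3 libraries labelled allogeneic and squares for the 3 labelled syngeneic, and bars for the mean ± SD. Ccr2 lies between 35.2 and 37.3 FPKM in allo-labelled libraries, above the 14.02 to 14.5 of syn-labelled libraries, Cxcr4 and Cxcr6 lie lower in allo-labelled libraries as deposited (not after scaling to the CD3 chains), and the Cxcr2 points overlap.

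The promoters of the 4 receptors that passed the test are shown because, as deposited, Cxcr4 and Cxcr6 were lower by nearly the same factor and Ccr2 and Cx3cr1 were higher. Any part of these sequences in the differences was not tested. The sequences are the 250 bases before the annotated start in RefSeq (build GRCm38.p6, whose starts differ in part from the GENCODE gene ends), 5′ to 3′ on the strand of the gene, and capitals mark matches to the TATA box motif TATAAA, the GC box motif GGGCGG, the RUNX core motif TGTGGT, the ETS core motif GGAAGT or the E box motif CACGTG, on either strand.
Cxcr4, chr1:128592300-128592549, minus strand: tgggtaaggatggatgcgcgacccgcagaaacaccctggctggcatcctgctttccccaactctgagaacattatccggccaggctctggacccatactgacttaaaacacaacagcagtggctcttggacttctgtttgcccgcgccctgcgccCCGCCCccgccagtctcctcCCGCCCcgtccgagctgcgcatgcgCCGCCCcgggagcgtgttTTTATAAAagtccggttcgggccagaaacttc
Cxcr6, chr9:123806227-123806476, plus strand: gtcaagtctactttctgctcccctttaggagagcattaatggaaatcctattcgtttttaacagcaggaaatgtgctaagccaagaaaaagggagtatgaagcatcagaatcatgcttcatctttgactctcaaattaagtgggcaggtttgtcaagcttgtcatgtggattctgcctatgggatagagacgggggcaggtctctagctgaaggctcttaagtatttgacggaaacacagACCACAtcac
Ccr2, chr9:124101933-124102182, plus strand: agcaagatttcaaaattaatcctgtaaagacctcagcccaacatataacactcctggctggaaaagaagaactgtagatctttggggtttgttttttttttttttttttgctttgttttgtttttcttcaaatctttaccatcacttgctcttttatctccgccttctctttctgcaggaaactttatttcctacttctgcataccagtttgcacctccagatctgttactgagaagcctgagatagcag
Cx3cr1, chr9:120068297-120068546, minus strand: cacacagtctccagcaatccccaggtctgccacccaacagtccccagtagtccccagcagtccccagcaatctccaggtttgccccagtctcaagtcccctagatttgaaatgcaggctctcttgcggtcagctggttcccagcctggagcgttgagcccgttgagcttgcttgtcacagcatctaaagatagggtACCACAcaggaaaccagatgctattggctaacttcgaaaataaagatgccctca

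The Cxcr4 and Cxcr6 promoters had none of the searched motifs in common. In windows from 250 bases before to 50 after the start, Cxcr4 held 3 GC boxes, at positions −95, −75 and −50 from the start, and a TATA box at −30 that overlaps its match on the other strand at −32. Of 32851 such windows 35.7% held a GC box and 13.6% a TATA box. Cxcr4 had 20 CpG pairs, against 3 in Cxcr6, 1 in Ccr2 and 5 in Cx3cr1 and a median of 7.0 over all windows. Cxcr6 and Cx3cr1 each held 1 RUNX core, at −10 and −54, and 16.8% of all windows held this motif. Ccr2 held none of the 5 motifs, which says only that these letters are not in this window.

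CXCR4 is the receptor of CXCL12 and holds blood cells of many kinds in the marrow and lymphoid tissue. Cxcr4 (ENSMUSG00000045382, GENCODE M21 on build GRCm38 as for all gene positions here, chromosome 1, 128588199 to 128592293, minus strand) was at 57.4, 56.8 and 53.1 FPKM in allo-labelled libraries, against 123, 108 and 97.9 in syn-labelled libraries. All 3 libraries labelled allogeneic lay below all 3 labelled syngeneic. The mean was 1.97-fold lower, at 55.7 ± 2.35 against 109.6 ± 12.4 FPKM (SD, n = 3 each, fitted log2 fold change −0.96, SE 0.0817, limma adjusted p = 6.22e-05). Cxcr4 was the highest of the 6 receptors in both groups, above 95.2% of tested genes by mean level.

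CXCR6 binds the membrane-bound chemokine CXCL16 and is known from effector and tissue-resident T cells and NK cells. Cxcr6 (ENSMUSG00000048521, chromosome 9, 123806475 to 123811760, plus strand) was at 27.8, 29.2 and 26.2 FPKM in allo-labelled libraries, against 62.0, 52.0 and 53.2 in syn-labelled libraries, again without overlap. The mean was 2.01-fold lower, at 27.7 ± 1.49 against 55.7 ± 5.45 FPKM (fitted log2 fold change −0.98, SE 0.0746, limma adjusted p = 3.73e-05). Replicate 1 was the highest of the syn-labelled libraries for both Cxcr4 and Cxcr6. The level of Cxcr4 over that of Cxcr6 was 2.07, 1.95 and 2.03 in allo-labelled libraries and 1.98, 2.08 and 1.84 in syn-labelled libraries. That ratio overlapped between the groups, whereas the ratios of the other 14 of 15 pairs of receptors did not. The share of such ratios over all pairs of genes was not computed. Since 72.5% of single tested genes did not overlap, the count does not set these pairs apart.

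The levels of Cxcr4 and Cxcr6 differed between the groups by about as much as those of T cell genes. Divided by the geometric mean of the 9 T cell markers of the same library, Cxcr4 was at 1.04 ± 0.0627 in allo-labelled libraries and 0.999 ± 0.103 in syn-labelled libraries, and Cxcr6 at 0.517 ± 0.0396 and 0.508 ± 0.0493 (SD, n = 3 each). Both ratios overlapped between the groups. When FPKM were scaled to the 4 CD3 chain genes, Cxcr4 stood at a log2 fold change of 0.12 (limma adjusted p = 0.155) and Cxcr6 at 0.08 (limma adjusted p = 0.351), the opposite sign from FPKM as deposited. On that scale the median over all tested genes stood at 1.01, and relative to this median Cxcr4 was at −0.89 and Cxcr6 at −0.93. Plasma cell markers, 6 of 6 lower (496 to 516 against 825 to 855 FPKM), moved with both receptors. The ratio of Cxcr4 to them overlapped between the groups, at 2.68 ± 0.0857 in allo-labelled libraries and 2.41 ± 0.345 in syn-labelled libraries. So did that of Cxcr6, at 1.33 ± 0.0706 and 1.22 ± 0.144. Blood progenitor markers (6 of 6) and granulocyte precursor markers (5 of 5) were higher, opposite to both. The CD8 T cell markers Cd8a and Cd8b1, both lower (summed 1.37 to 1.57 against 13.9 to 15.6 FPKM), and 3 of 4 NK cell markers (42.3 to 49.3 against 143 to 157 FPKM for the 4, with 1 higher) moved with Cxcr6, whose ratio to the NK cell markers was 4.799 ± 0.350 against 7.62 ± 1.12. The part of these cells in the Cxcr4 and Cxcr6 differences was not tested.

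CCR2 is the receptor of CCL2 and brings monocytes and some effector T cells from blood into inflamed tissue. Ccr2 (ENSMUSG00000049103, chromosome 9, 124101950 to 124113557, plus strand) was at 36.6, 37.3 and 35.2 FPKM in allo-labelled libraries, against 14.5, 14.02 and 14.4 in syn-labelled libraries. The replicates of each group lay close together and the groups far apart. The mean was 2.55-fold higher, at 36.4 ± 1.06 against 14.3 ± 0.250 FPKM (fitted log2 fold change 1.29, SE 0.0368, limma adjusted p = 6.78e-07). The change was larger in size than that of 92.4% of tested genes, and 571 genes had a higher fold change. In the longest coding transcript of Ccr2 1055 bases (18.4%) match transcripts of other genes at 85% identity or more, so the counting of reads there is uncertain. The same share was 25.9% for Cxcr2, 8.3% for Cx3cr1, 8.0% for Ccr9 and 0.0% for Cxcr4 and Cxcr6.

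CX3CR1 binds fractalkine, CX3CL1, and marks patrolling monocytes, tissue macrophages and cytotoxic effector T cells. Cx3cr1 (ENSMUSG00000052336, chromosome 9, 119901616 to 120069879, minus strand) was at 4.15, 4.49 and 3.81 FPKM in allo-labelled libraries, against 2.72, 2.76 and 3.04 in syn-labelled libraries. These values, which did not overlap, came from 304, 327 and 269 reads against 208, 210 and 203, recovered from FPKM and exon length. The mean was 1.46-fold higher, at 4.15 ± 0.339 against 2.84 ± 0.171 FPKM (fitted log2 fold change 0.42, SE 0.0750, limma adjusted p = 0.00222).

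Most markers of monocytes and macrophages moved with Ccr2 and Cx3cr1, and the T cell markers moved the other way. Of 5 monocyte markers 4 were higher in allo-labelled libraries and 1 lower. Csf1r, the receptor of the macrophage growth factor, was at 64.5 ± 0.0617 FPKM in allo-labelled libraries and 11.9 ± 0.437 in syn-labelled libraries, and the lower marker, Ly6c2, at 36.0 ± 6.18 and 220.3 ± 6.27. The summed level of the 5 was 201 to 213 FPKM against 259 to 274. Divided by the geometric mean of the 5 monocyte markers, Ccr2 was at 1.16 ± 0.0902 in allo-labelled libraries and 0.811 ± 0.0169 in syn-labelled libraries, still without overlap. The same ratio of Cx3cr1 overlapped, at 0.133 ± 0.0174 and 0.161 ± 0.0108. Divided by the 9 resident macrophage markers both receptors were lower in allo-labelled libraries, Ccr2 at 1.42 ± 0.0545 against 2.69 ± 0.201 and Cx3cr1 at 0.161 ± 0.0147 against 0.536 ± 0.0649. Divided by the 9 T cell markers both were higher in allo-labelled libraries without overlap. Ccr2 was at 0.679 ± 0.0350 against 0.130 ± 0.00424 and Cx3cr1 at 0.0775 ± 0.00812 against 0.0259 ± 0.00206. The ratio of Ccr2 to the 5 plasmacytoid dendritic cell markers overlapped between the groups, at 6.46 ± 2.06 and 5.75 ± 0.631. So did its ratio to 5 conventional dendritic cell markers, at 25.1 ± 1.33 and 20.98 ± 5.51, but those markers were low. The part of dendritic cells, other myeloid cells or T cells in the Ccr2 and Cx3cr1 differences was not tested.

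CXCR2 binds CXCL1, CXCL2 and related chemokines and is the main receptor by which neutrophils leave the marrow and enter inflamed tissue. Cxcr2 (ENSMUSG00000026180, chromosome 1, 74153989 to 74161246, plus strand) was at 3.37, 4.69 and 3.98 FPKM in allo-labelled libraries, against 3.79, 3.91 and 4.31 in syn-labelled libraries, from 167 to 231 reads a library. The groups overlapped, and the widest spread was within allo-labelled libraries. In the longest coding transcript of Cxcr2 790 bases (25.9%) match transcripts of other genes, so the counting of reads there is uncertain. The log2 fold change was −0.0046 with a 95% confidence interval of −0.26 to 0.25 (limma adjusted p = 0.972). Of 10 neutrophil markers 9 were higher in allo-labelled libraries (2886 to 3011 against 1091 to 1277 FPKM for the 10), as were all 5 markers of granulocyte precursors (1317 to 1395 against 190.1 to 243 FPKM), and the part of these cells in the Cxcr2 values was not tested. Relative to the 10 neutrophil markers Cxcr2 was lower, at 0.0387 ± 0.00694 against 0.117 ± 0.0141 without overlap, and relative to the CD3 chains it was higher (log2 fold change 0.86, limma adjusted p = 0.000203), below the median of all genes on that scale. Cxcr1, which encodes the other receptor of this kind, did not reach the filter and was at 0.0565 ± 0.0655 FPKM in allo-labelled libraries and 0.870 ± 0.304 in syn-labelled libraries.

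CCR9 binds CCL25 and directs T cells to the small intestine and progenitors to the thymus, and plasmacytoid dendritic cells carry it too. Ccr9 (ENSMUSG00000029530, chromosome 9, 123678439 to 123784330, plus strand) was the lowest of the 6, at 1.18, 1.36 and 1.25 FPKM in allo-labelled libraries, against 1.48, 1.46 and 1.63 in syn-labelled libraries. The groups did not overlap, and the reads numbered 197, 225 and 201 against 257, 252 and 248. The log2 fold change was −0.16 with a 95% confidence interval of −0.35 to 0.04 (limma adjusted p = 0.138). Ccr9 passed the threshold as lower in limma without a mean-variance trend (adjusted p = 0.0373), after subtraction of the median fold change (adjusted p = 0.0351) and in voom on recovered reads (log2 fold change −0.26, adjusted p = 0.0441), and as higher after scaling to the CD3 chains (0.48, adjusted p = 0.00213). Its annotated exons are long, 10260 bases against 5197 in its longest coding transcript, which can make its FPKM too low beside the other receptors. Of these exon bases 21.5% overlap exons of other genes on either strand, which reads without a strand cannot tell apart. Of the 5 plasmacytoid dendritic cell markers 3 were higher and 1 lower in allo-labelled libraries (104 to 128 against 120.3 to 131 FPKM for the 5), and their part in the Ccr9 values was not tested.

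**Figure D2:**
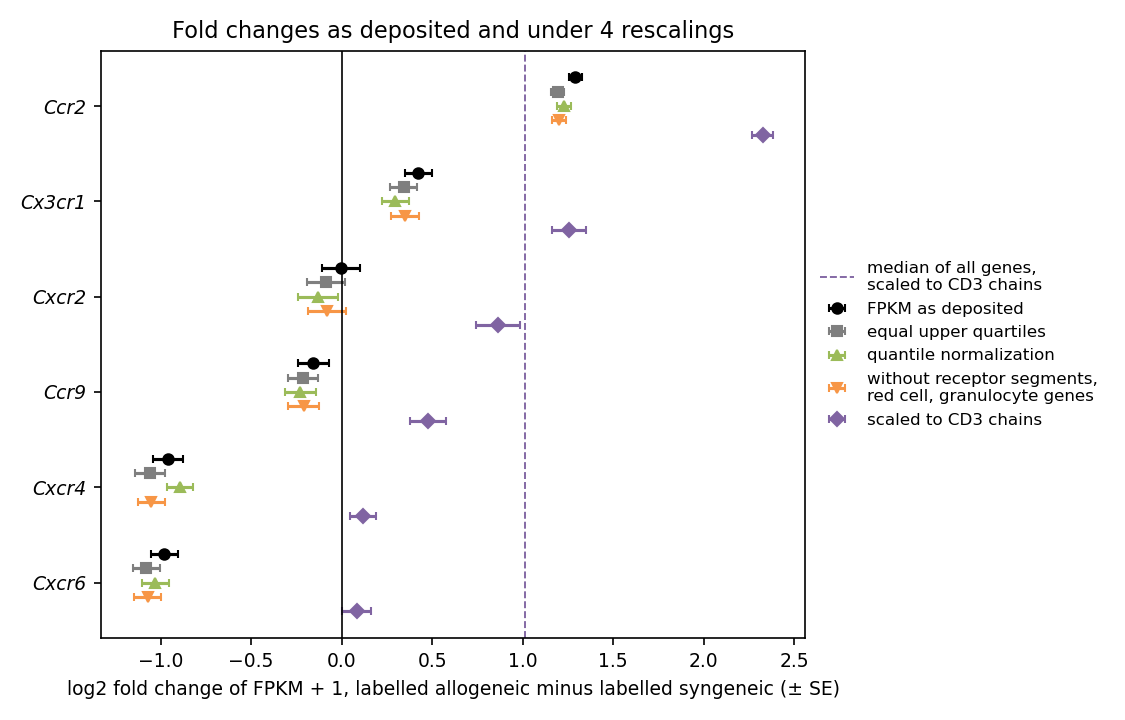
Log2 fold changes of the 6 receptors, allo-labelled minus syn-labelled libraries, with bars for the SE, for FPKM as deposited and under 4 rescalings, and a dashed line at the median of all genes after scaling to the CD3 chains (1.01). Ccr2 and Cx3cr1 stay to the right of 0 in all 5, and Cxcr4 and Cxcr6 lie near −1 except after scaling to the CD3 chains, where they lie near 0.

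The order of the receptors by level differed between the groups. In allo-labelled libraries it ran Cxcr4, Ccr2, Cxcr6, Cx3cr1, Cxcr2 and Ccr9, and in syn-labelled libraries Cxcr4, Cxcr6, Ccr2, Cxcr2, Cx3cr1 and Ccr9. Neighbours in the order had ranges that did not overlap, except Cx3cr1 and Cxcr2 in allo-labelled libraries. The last place of Ccr9 rests on its 10260 annotated exon bases. Its longest coding transcript has 5197 bases, so its FPKM may be too low and its place is uncertain. Ccr2 and Cxcr6 changed places, with a Ccr2 level 1.32, 1.28 and 1.34 times that of Cxcr6 in allo-labelled libraries and 0.234, 0.269 and 0.270 times in syn-labelled libraries. Such ratios do not change when all values of a library are scaled by a common factor, but quantile normalization can change them. With 3 libraries against 3 an exact permutation test cannot go below 0.1, so the ratios are given without a test.

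The summed level of the 17 conventional chemokine receptor genes with values was 217 ± 1.37 FPKM in allo-labelled libraries and 312 ± 14.9 in syn-labelled libraries (SD, n = 3 each). The 6 receptors together held 59.6% ± 2.08 and 60.2% ± 2.56 of it, which overlapped between the groups. Of the summed level of all 17 genes Ccr2 held 16.8% ± 0.395 in allo-labelled libraries and 4.58% ± 0.181 in syn-labelled libraries. Cx3cr1 held 1.91% ± 0.147 and 0.913% ± 0.0909, and Cxcr2 1.85% ± 0.302 and 1.29% ± 0.140. Cxcr4 held less in allo-labelled libraries, 25.7% ± 0.924 against 35.1% ± 2.41, and so did Cxcr6, 12.8% ± 0.619 against 17.8% ± 0.934. The shares of all 6 did not overlap between the groups, but neither did those of 16 of the 17 receptors in all, so this does not set the 6 apart. Ccr9, at 0.582% ± 0.0403 and 0.488% ± 0.0473, was the smallest of the 6, given its long annotated exons.

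**Figure D3:**
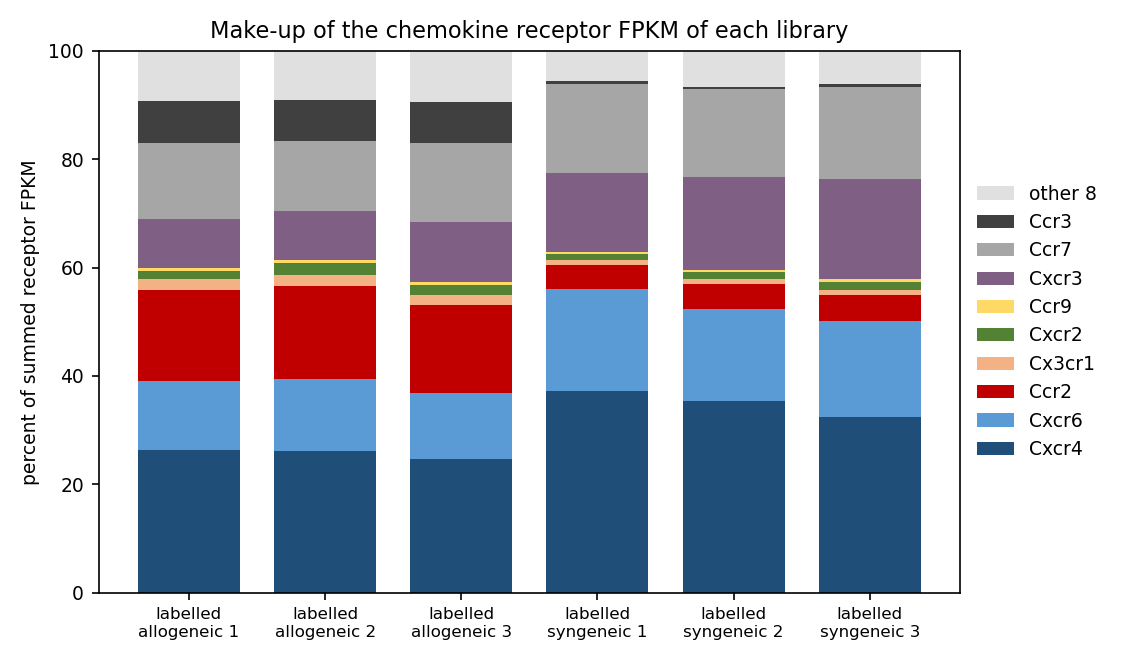
Each bar is 1 library, the 3 labelled allogeneic on the left and the 3 labelled syngeneic on the right, and each colour the percent of the summed FPKM of 17 chemokine receptor genes that 1 gene holds. Ccr2 takes 16.4 to 17.1% of the bars labelled allogeneic and 4.41 to 4.77% of syn-labelled libraries.

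Among the other conventional chemokine receptors, 4 of 10 tested genes were higher and 4 lower in allo-labelled libraries, with a median log2 fold change of −0.18 against 0.09 for all genes. The share called was 80.0%, against 67.4% of all tested genes. After scaling to the CD3 chains 7 were higher and 1 lower. Ccr3, a receptor of eosinophils and basophils, was at 16.5 ± 0.346 FPKM in allo-labelled libraries and 1.499 ± 0.251 in syn-labelled libraries (log2 fold change 2.82). Ccr4, a receptor of type 2 helper and regulatory T cells, rose by 1.12 on the log2 scale, and Ccr6, a receptor of type 17 helper cells, by 0.73. Cxcr3, the receptor of interferon-induced chemokines on type 1 effector cells, fell to 20.95 ± 2.41 FPKM in allo-labelled libraries, against 51.8 ± 3.84 in syn-labelled libraries (log2 fold change −1.27). Cxcr5 (−1.01), which leads cells into follicles, and Ccr7 (−0.75), which leads them into lymph nodes, also fell on the log2 scale. Ccr6 was low, at 1.85 ± 0.374 against 0.720 ± 0.206 FPKM, and reached the filter only through allo-labelled libraries. Cxcr5, at 0.761 ± 0.244 against 2.52 ± 0.135 FPKM, reached it only through syn-labelled libraries. The directions of both were therefore favoured by the filter.

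**Figure D4:**
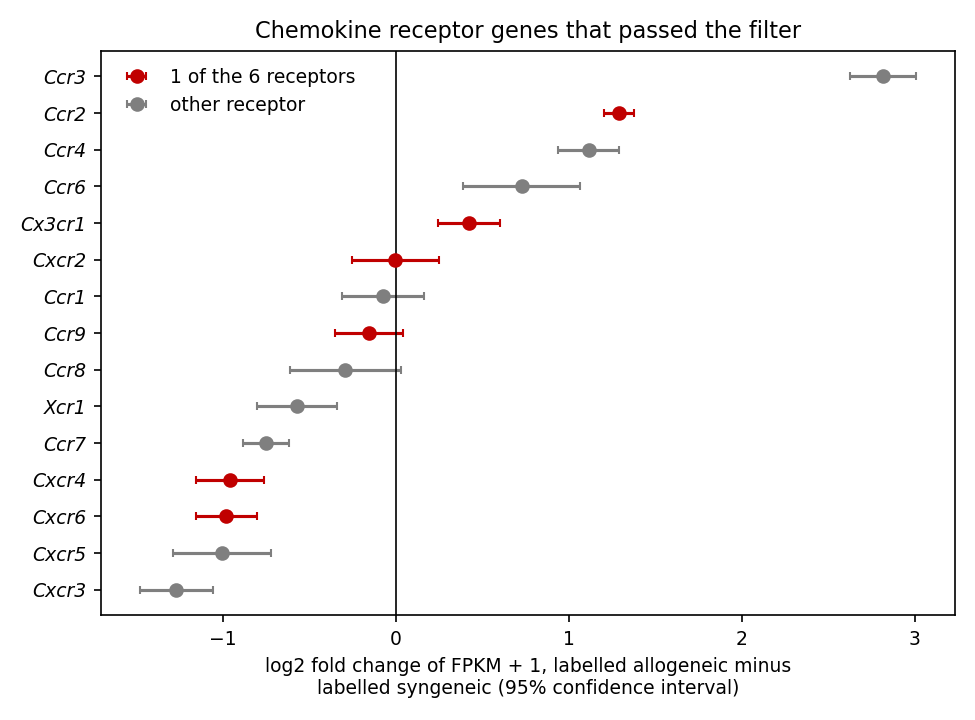
Log2 fold changes of 15 tested chemokine receptor genes, allo-labelled minus syn-labelled libraries, with 95% confidence intervals, the 6 receptors described here in red and the others in grey. Ccr2 lies second from the top after Ccr3, and Cxcr4 and Cxcr6 lie near Cxcr5 and Cxcr3 at the bottom, for FPKM as deposited (Cxcr4 and Cxcr6 turn to 0.12 and 0.08 after scaling to the CD3 chains).

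Of the receptors 4, Ccr2, Ccr9, Cxcr6 and Cx3cr1, lie on chromosome 9 and the other two on chromosome 1. Ccr9, Cxcr6 and Ccr2 belong to a receptor cluster whose genes did not move together. In allo-labelled libraries Ccr3 and Ccr2 were higher, Cxcr6 and Xcr1 lower, and Ccr9 and Ccr1 not called. Xcr1 was near the floor, at 0.415 ± 0.0510 FPKM in allo-labelled libraries and 1.10 ± 0.0941 in syn-labelled libraries. It reached the filter only through the syn-labelled libraries, so its direction was favoured by the filter. Cxcr6 lies within the span of Fyco1, a gene of vesicle transport on the opposite strand, and shares no exon bases with it. Fyco1 was lower as well, at 5.89 ± 0.186 FPKM in allo-labelled libraries and 8.62 ± 0.489 in syn-labelled libraries (log2 fold change −0.48, SE 0.0559, limma adjusted p = 0.000279). Lztfl1, which lies within the annotated span of Ccr9, was not called (0.02, limma adjusted p = 0.861).

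**Figure D5:**
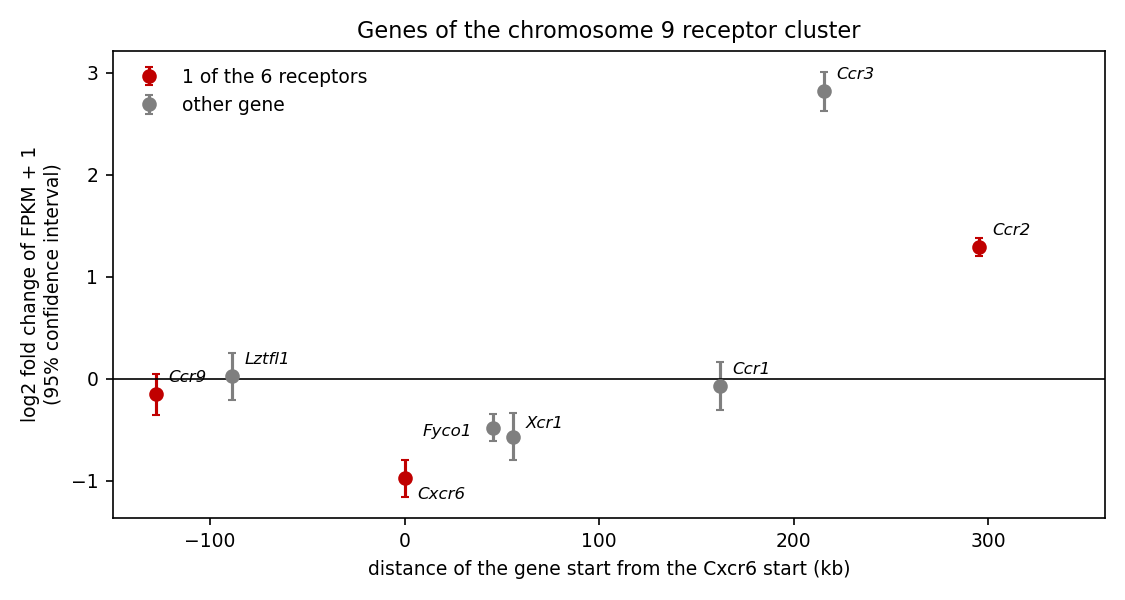
Log2 fold changes, allo-labelled minus syn-labelled libraries, of 8 tested protein-coding genes of the chromosome 9 cluster against the distance of each gene's annotated start from that of Cxcr6 in kb, with 95% confidence intervals. Cxcr6 at 0 kb is the lowest point (−0.98 as deposited, 0.08 after scaling to the CD3 chains) and Ccr2, 295.5 kb away, is at 1.29.

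Ligands of the receptors and enzymes that process them were measured in part, and the ligand genes Cxcl12, Cxcl16 and Cx3cl1 had no values. Of 8 tested genes, enzyme genes and the platelet marker Pf4 included, 6 were higher and 1 lower in allo-labelled libraries (median log2 fold change 0.65). The share called was 87.5%, against 67.4% of all tested genes. After scaling to the CD3 chains 7 were higher, where 11404 of all 13235 tested genes were higher. Ccl2, the ligand of CCR2, was at 2.94 ± 1.03 FPKM in allo-labelled libraries and 0.645 ± 0.388 in syn-labelled libraries (log2 fold change 1.25, limma adjusted p = 0.00401). These Ccl2 levels rest on few reads, 72, 34 and 55 against 4, 15 and 16, and Ccl2 reached the filter only through allo-labelled libraries. Cxcl2 and Ppbp, ligands of CXCR2, rose by 1.00 and 1.10 on the log2 scale. Mif, a cytokine that also binds CXCR4 and CXCR2, was at 179.6 ± 5.72 against 104 ± 15.3 FPKM. Dpp4, a protease that cuts CXCL12, fell to 7.75 ± 0.287 FPKM in allo-labelled libraries, against 16.96 ± 0.763 in syn-labelled libraries, and Adam10, which sheds CXCL16 and CX3CL1, rose by 0.43 on the log2 scale. Ccl25, the ligand of CCR9, did not reach the filter.

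Genes that carry or end the receptor signal were divided. Of 25 G protein and motility genes 8 were higher and 11 lower in allo-labelled libraries (median log2 fold change 0.0007). The 76.0% called lay near the 67.4% of all tested genes. After scaling to the CD3 chains 24 were higher and 0 lower, where 11404 of all 13235 tested genes were higher. Plcb2, a phospholipase activated by G proteins, rose by 0.71 on the log2 scale, and the actin branching subunit Arpc2 and the G protein subunit Gnb2 rose by 0.39 each. Pik3r5, a subunit of phosphoinositide 3-kinase gamma, was at 24.6 ± 0.677 FPKM in allo-labelled libraries and 52.6 ± 1.40 in syn-labelled libraries (−1.06), and the Rac activator Prex1 and the kinase Ptk2b fell by 0.76 and 0.73. Of 15 genes of receptor desensitization 8 were higher and 4 lower (median 0.22, 80.0% called), and all 15 were higher after scaling to the CD3 chains. The change was unequal within families. Among receptor kinases Grk3 stood at 1.61 and Grk6 at −0.61, and among arrestins Arrb1 at 1.19 and Arrb2 at −0.43 on the log2 scale. Rgs14, an inhibitor of G protein signals like Rgs18, fell by 0.53. Rgs18, which is known from platelets and myeloid cells, was at 23.1 ± 1.82 against 4.37 ± 0.354 FPKM.

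Transcription factors known to act at receptor genes or in the cells that carry them were also divided, with 5 of 16 higher and 8 lower and a median log2 fold change of −0.25. In all 81.2% were called, against 67.4% of all tested genes. After scaling to the CD3 chains 12 were higher and 3 lower, where 11404 of all 13235 tested genes were higher. Those that fell most were Tbx21 (−1.49), the type 1 helper factor, Prdm1 (−1.35), a factor of effector and plasma cells, and Bach2 (−1.15), a factor of resting lymphocytes. Those that rose most were Zfp683 (1.69), a factor of tissue-resident lymphocytes, Irf8 (1.68), a factor of monocytes and dendritic cells, and Klf4 (1.34), a factor of monocytes. Tbx21 was at 9.87 ± 0.957 FPKM in allo-labelled libraries and 29.6 ± 2.86 in syn-labelled libraries, and Irf8 at 37.9 ± 0.830 and 11.2 ± 1.13.

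The genes nearest to each receptor in pattern were sought among 10588 named coding genes by the root mean square difference of log2(FPKM + 1) over the 6 libraries, each gene centred on its own mean. With 2 groups this measure mostly reads the fold change and the order of replicates. Usp18, a protease induced by interferon, was the nearest to Cxcr4 (0.0453), before Phf11b (0.0503) and Mettl23 (0.0582), and second nearest to Cxcr6 (0.0476), and Rtp4, another interferon-induced gene, was nearest to Cxcr6 (0.0422), with Mtmr1 (0.0488) after both. Within a difference of 0.1 lay 56 genes around Cxcr4 and 65 around Cxcr6. Among the nearest to Ccr2 were the replication genes Mcm10 (0.0296) and Dtl (0.0304), with 180 genes within 0.1. Around Cx3cr1 1046 genes lay within 0.1, with Naa25 (0.0285), Ssfa2 (0.0294) and Usp22 (0.0310) first, and around Ccr9 1594, with Axin1 (0.0208), Lsm4 (0.0212) and Crtc3 (0.0249) first. Among the 184 genes around Cxcr2 Slc17a5 (0.0409) was the nearest, and Tango2 (0.0493) was close to it.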

How the data were processed

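FPKM of 15686 genes were given for 6 libraries, 3 labelled allogeneic and 3 labelled syngeneic. Groups follow the labels' characteristics, although titles carry the letter S for libraries labelled allogeneic and A for syngeneic. Library construction followed ribosomal RNA depletion, per the labels. The authors' deposited values show the unit: a value times the merged exon length of GENCODE M21 was a whole number of reads in all libraries, within 0.05, for 92.9% of genes, and totals differed, so the unit is FPKM (or RPKM), not TPM. For aligner, counter, build and annotation nothing is given in the sources used here. The submitters' processing notes name limma. Low FPKM are imprecise, and composition moves every value of a library.

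Genes with at least 1 FPKM in 3 libraries were fitted with limma 3.58.1 (R 4.3.3) on log2(FPKM + 1) (trend, Benjamini-Hochberg over all tested genes), after a test on simulated reads. Near-identical transcripts were sought with BLAST+ 2.17.0 (85% identity over 50 bases). Receptors, lists and the naming rule (all 6 receptors, up to 3 rises and 3 falls per list, 3 nearest genes per receptor) were chosen with earlier results of these data known. Cxcr1, Fyco1, Lztfl1, Adam10, Ccl25, Mif, Csf1r, Ly6c2, Xcr1, and the ratios and shares were chosen after values were seen. Alternatives covered scaling, pseudocount, filter, test, replicate block and leaving out each library. Some genes that these rules would name are not reported here. The table held no columns beyond these 6 libraries.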

Additional observations from a re-analysis of the deposited data

How the results depend on the processing

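Of 105 fold changes recomputed for the 6 receptors under 18 alternatives, 96 kept their direction and their side of the threshold. Of 144 recomputed counts of called genes 142 were within 1.5 times the count as deposited, which says nothing of direction or of which genes: after scaling to the CD3 chains the 4 receptors called were Ccr2, Cx3cr1, Cxcr2 and Ccr9, all higher, and 24 G protein and motility genes were higher and 0 lower, against 8 and 11. The calls of Ccr2 and Cx3cr1 held under all alternatives in which they were tested, with log2 fold changes of 1.10 to 2.32 and 0.22 to 1.26. Scaling to the CD3 chains turned Cxcr4 to 0.12, Cxcr6 to 0.0825, Cxcr2 to 0.86 and Ccr9 to 0.48, and the cause was not tested. That scaling, by construction, sets the CD3 chain genes, lower in allo-labelled libraries as deposited, to no change. Ccr9 was also called lower after subtraction of the median (−0.25), without the trend (−0.16) and in voom (−0.26). Without 1 library at a time the log2 fold change ran from −0.0999 to 0.0897 for Cxcr2, from −0.19 to −0.13 for Ccr9, from −1.04 to −0.87 for Cxcr4, from −1.03 to −0.902 for Cxcr6, from 1.27 to 1.31 for Ccr2 and from 0.38 to 0.47 for Cx3cr1. The 4 calls among the 6 receptors held in each of these 6 fits. Of the other conventional receptors 4 were called with a filter at 5 FPKM, where fewer genes were tested, and of the related chemoattractant receptors 8 after scaling to the CD3 chains, against 5 as deposited. At 5 FPKM Ccr9, Cxcr2 and Cx3cr1 were not tested. With the replicate number as a block 8673 genes were called, and the 4 receptor calls held, Cx3cr1 with adjusted p = 0.0109. Same-numbered libraries did not deviate together (correlations −0.031, 0.0159 and −0.054 across genes), and differently numbered ones ran from −0.0504 to 0.0788. These values gave no sign of pairing, but with 3 replicates they cannot settle whether the numbers pair the libraries. Equal upper quartiles gave 4563 higher and 4332 lower calls over all genes and quantile normalization 4684 and 4289, against 5389 and 3525.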

Other observations

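Of 10 tested genes of atypical and related chemoattractant receptors 2 were higher and 3 lower in allo-labelled libraries, and after scaling to the CD3 chains 7 were higher and 1 lower. S1pr1, the sphingosine phosphate receptor by which T cells leave lymphoid organs, was at 36.5 ± 1.42 FPKM in allo-labelled libraries and 82.3 ± 1.86 in syn-labelled libraries (SD, n = 3 each, limma adjusted p = 1.35e-06). S1pr4 and Gpr183, a receptor for oxysterols, fell by 1.17 and 1.21 on the log2 scale. The formyl peptide receptor Fpr1, which guides neutrophils to bacterial products, was at 6.07 ± 0.604 FPKM in allo-labelled libraries and 1.81 ± 0.263 in syn-labelled libraries (limma adjusted p = 3.04e-05), and Fpr2 rose by 0.71. The other 5, among them the myeloid receptor gene C5ar1 (limma adjusted p = 0.0899), did not pass the test.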
